A study of Danio rerio with 6 samples.

Results

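The anoctamins, also called the TMEM16 family, are membrane proteins with a shared transmembrane fold, most of which are activated by calcium inside the cell. Some members open as chloride channels, through which epithelia secrete chloride. Others are scramblases, which move phospholipids between the leaflets of a membrane, and some sit in inner membranes and help to hold the endoplasmic reticulum close to the cell surface. In the distal nephron, where sodium and chloride are taken back from the tubule fluid, chloride pathways are better known from the ClC channels than from this family.

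The genes followed here carry 10 symbols, ano1, ano2, ano5a, ano5b, ano6, ano7, ano8b, ano9b, ano10a and ano10b, and they gave 11 rows of a count table of 31953 zebrafish genes. Rows were found by symbol, ignoring case, and where a lettered copy was not listed every row with the unlettered symbol was taken. That gave 2 rows for ANO5 and 2 for ANO8, which are told apart below by their Ensembl identifiers and not by copy letter, and 1 row for ANO10. The symbol ano2 was reached as a RefSeq synonym of ano2b. The family was selected on measured values, chosen by the fold change of ano7 between distal late segments and the rest of the kidney in these same libraries, so the levels and fold changes of its genes between the dissected fractions are a description, without a test. A filter on low counts was passed by 10 of the 11 rows and by 17083 of all genes.

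The libraries came from the mesonephros, the adult kidney, of adult zebrafish that all carried the transgene Tg(slc12a3:mCherry), a red reporter driven by the gene of the sodium-chloride cotransporter. The first group held 3 libraries of hand-dissected, mCherry-positive distal late (DL) segments. The second held 3 libraries of the remaining mesonephros, labelled mCherry-negative. This remainder was not a nephron segment but a mixture of all other tubule, glomerular, vessel and blood-forming tissue, and the labels state neither how many fish were pooled nor whether 1 fish gave material to both groups. P-values thus cover the variation among these libraries alone, and that variation may be technical.

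Library totals ran from 9320756 to 22776825 deposited counts. SLC12A3, the gene whose promoter drives the reporter, had 251, 905 and 32.9 CPM (counts per 1000000 counts of the scaled library total) in DL replicates 1 to 3, against 41.9, 30.4 and 43.0 CPM in rest replicates 1 to 3. For the gene that defines the dissection, the library labelled DL replicate 3 was therefore within the range of the rest libraries. It also held STC1_ENSDARG00000058476, a stanniocalcin gene of the endocrine corpuscles of Stannius that lie on the kidney, at 11225 CPM. The other DL libraries had 13.5 and 2.87 CPM of it, against 7.79 to 343 CPM in the rest libraries. The other marker rows of the corpuscles did not stand out in this way. STC1_ENSDARG00000003303 had 0 counts in DL replicate 3, and CASR was at 6.81 CPM there, near the 6.33 CPM of rest replicate 1. In DL replicate 1 and rest replicate 3 the same single gene, si:dkey-153m14.1, took 38.3% and 36.9% of all counts. Their scaling factors (0.520 and 0.533) were less than those of the other libraries (1.14 to 1.80). In those other libraries the top gene was ENSDARG00000080337, at 11.9% to 22.2% of all counts. In these bulk samples, fewer cells of a type and less RNA per cell cannot be told apart.

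Of the family, ano7 had the largest positive fold change of DL segments over the rest. In humans ANO7 is known as a gene of the prostate epithelium, and its protein has been grouped with the scramblases. It had 132, 67.0 and 46.4 CPM in DL replicates 1 to 3, against 7.28, 9.48 and 13.6 CPM in rest replicates 1 to 3. Every DL library lay above every rest library, and the lowest of the DL libraries was 3.43 times the highest of the rest. The means were 82.0 ± 44.9 CPM for DL and 10.1 ± 3.19 CPM for rest libraries (SD, n = 3 each), and the fitted log2 fold change of DL over rest was 3.03 ± 0.53 (SE). A ratio of lowest DL to highest rest library at least as large was found in 83 of the 17083 genes tested, ano7 included. Among the 2509 of them whose mean log-CPM reached 5, it was found in 21.

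The spread of ano7 within the DL group depended in part on the scaling. With library size alone as the scaling, ano7 had 68.9, 78.0 and 52.8 CPM in DL replicates 1 to 3, against 13.1, 14.3 and 7.23 CPM in rest replicates 1 to 3. The DL libraries were then within a narrower range and still did not overlap with the rest libraries, whereas the order of the libraries within each group changed. The fitted log2 fold change was 3.35 ± 0.53 without the library labelled DL replicate 3, and over the 12 alternative settings given in the closing section it ran from 2.53 to 3.35.

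**Figure D1:**
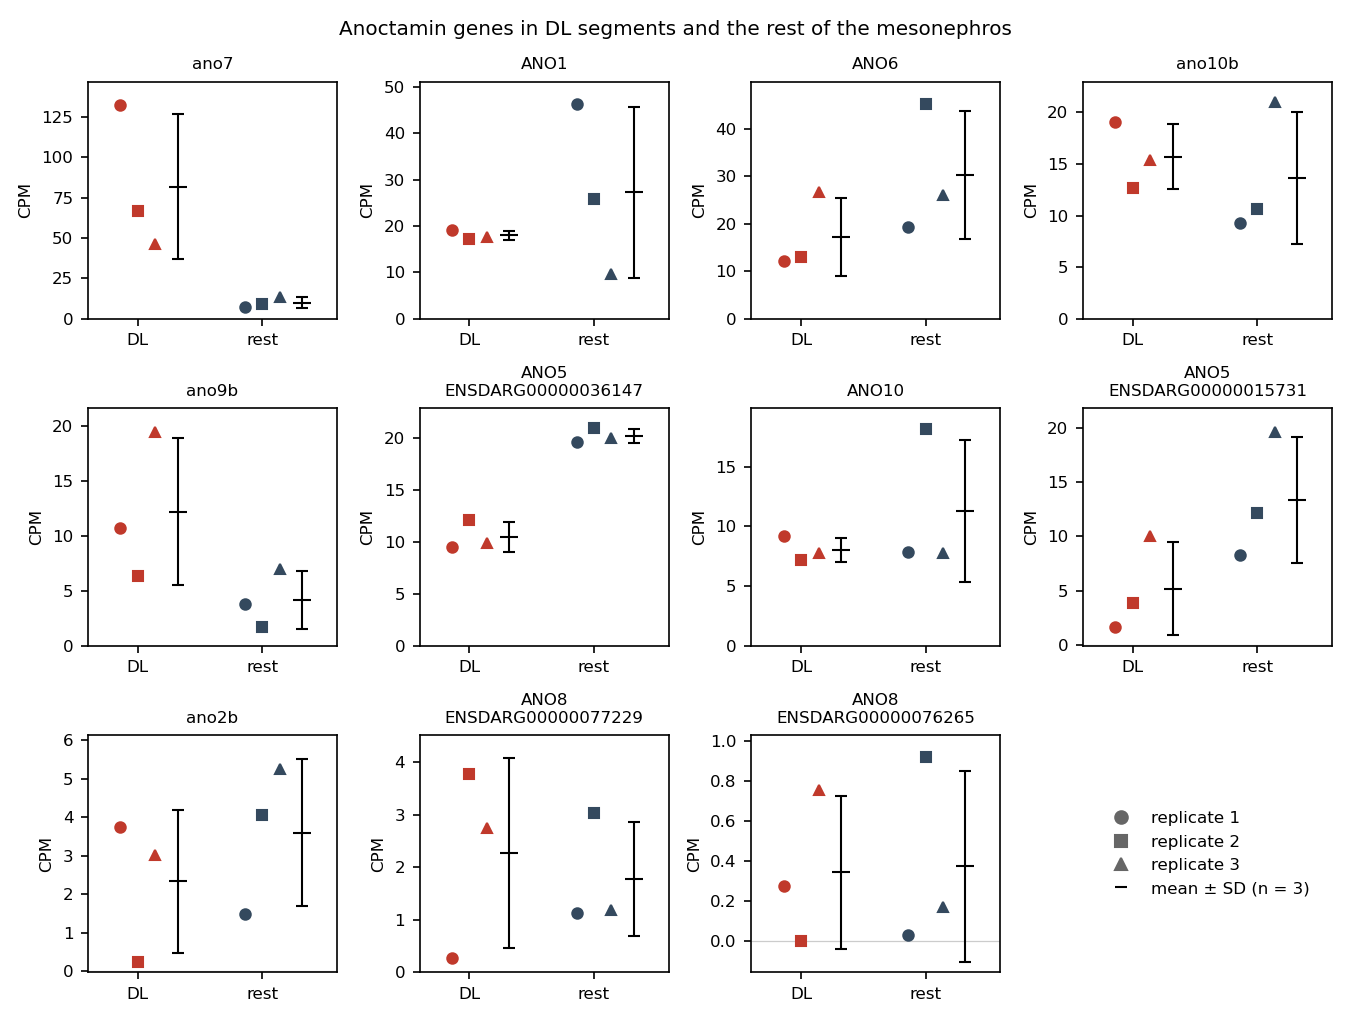
Level of each of the 11 anoctamin rows in CPM (linear axis, a separate scale in each panel) in DL segments (left, red) and the rest of the mesonephros (right, blue), with 1 symbol per library and the mean ± SD (n = 3) in black. For ano7 the 3 DL libraries sat between 46.4 and 132 CPM, all above the rest libraries, and for ANO5_ENSDARG00000036147 all DL libraries, at 9.45 to 12.1 CPM, sat below the rest.

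The ratio of ano7 to the reporter's own gene varied widely between DL libraries. In the library labelled DL replicate 3, where SLC12A3 was within the range of the rest libraries, ano7 was still above all of them. Per read of SLC12A3 there were 0.529, 0.0741 and 1.41 reads of ano7 in DL replicates 1 to 3, against 0.173, 0.313 and 0.315 in rest replicates 1 to 3, so this ratio overlapped between the groups and its DL values spanned more than the rest values on both sides. The chloride channel gene clcnk, whose product carries chloride out of distal tubule cells on the blood side, had 126, 76.9 and 11.2 CPM in DL replicates 1 to 3, against 9.50, 1.95 and 1.02 CPM in rest replicates 1 to 3. The gene bsnd, for the barttin subunit of that channel, had 22.2, 36.8 and 5.39 CPM in DL replicates, against 3.20, 1.46 and 1.36 CPM in rest replicates. GATA3, a transcription factor gene of the nephric duct lineage, had 141, 108 and 49.8 CPM in DL replicates, against 28.3, 15.1 and 13.4 CPM in rest replicates. For these 3 genes, as for ano7, the library labelled DL replicate 3 was the lowest of its group and still above the rest in TMM-scaled CPM. For clcnk it was only 1.17 times the highest rest library, and this order depended on the scaling. Unscaled, clcnk took 118 of 9293273 filtered counts in that library, against 312 of 18245490 in rest replicate 1. The groups overlapped for the last of the 5 distal late markers, the magnesium channel gene TRPM6, which had 12.5, 8.24 and 7.66 CPM in DL replicates, against 1.83, 13.4 and 7.45 CPM in rest replicates, with a log2 fold change of 0.33 ± 0.73 (SE).

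**Figure D2:**
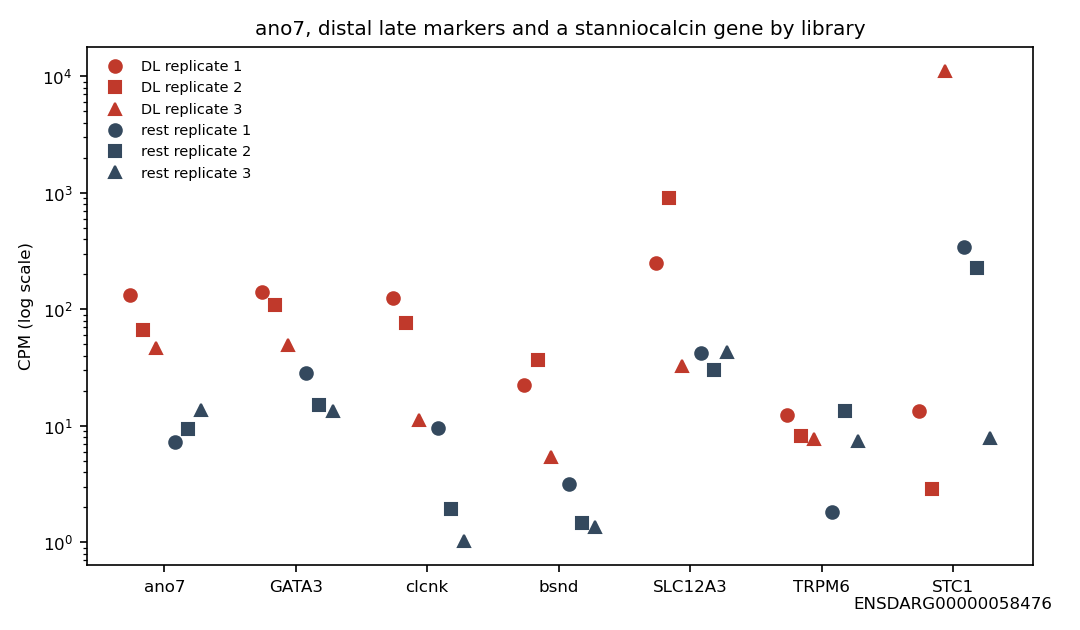
Level of ano7, all 5 distal late markers and the stanniocalcin gene STC1_ENSDARG00000058476 in each library (CPM, log axis), with DL libraries in red to the left of rest libraries in blue and 1 symbol per replicate. The library labelled DL replicate 3 (red triangle) is above the rest libraries for ano7 (46.4 CPM), GATA3, clcnk and bsnd, within them for SLC12A3 (32.9 CPM) and TRPM6 (7.66 CPM), and far above all others for the stanniocalcin gene (11225 CPM).

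Likeness to ano7 was measured as Pearson's r of log2 CPM over the 6 libraries, among 7294 other tested genes that had a gene name and whose mean log-CPM reached 3. The 5 most alike were ARHGAP42_ENSDARG00000056619 (r = 0.993), prdm1b (r = 0.993), gucy2ca (r = 0.989), ZNF503 (r = 0.988) and SORL1 (r = 0.987). Of these, prdm1b and ZNF503 encode zinc finger proteins of the nucleus, gucy2ca a receptor guanylate cyclase and SORL1 a sorting receptor. The points are only 6 libraries that share their scaling, and an r of at least 0.9 was found for 179 of the genes, or 2.45%. The measure follows the shape over the libraries and not the size. It also carries the difference between DL and rest libraries by which ano7 was chosen, so a high r is a description only. The log2 fold change of DL over rest was 3.05 ± 0.58 (SE) for gucy2ca and 2.80 ± 0.53 for SORL1, but 1.07 ± 0.48 for ARHGAP42_ENSDARG00000056619 and 1.19 ± 0.46 for prdm1b. SORL1 had 460, 313 and 152 CPM in DL replicates 1 to 3, against 36.7, 48.6 and 47.9 CPM in rest replicates 1 to 3. By the same measure the 5 distal late markers had an r of 0.90 for GATA3, 0.86 for bsnd, 0.83 for clcnk, 0.71 for SLC12A3 and 0.51 for TRPM6.

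The calcium-activated chloride channels of the family are known from ANO1 and ANO2. ANO1, the channel of secretory epithelia and of pacemaker cells of the gut in mammals, had 19.2, 17.3 and 17.6 CPM in DL replicates 1 to 3, against 46.4, 25.8 and 9.66 CPM in rest replicates 1 to 3. In TMM-scaled CPM the DL libraries were close to each other, at 18.0 ± 1.02 CPM (SD, n = 3). They lay inside the rest libraries, at 27.3 ± 18.4 CPM (SD, n = 3), whose highest was 4.81 times their lowest. The closeness of the DL libraries depended on the scaling. Scaled by library size alone, ANO1 had 9.97, 20.11 and 20.01 CPM in DL replicates, against 83.6, 38.9 and 5.15 CPM in rest replicates. The log2 fold change was -0.61 ± 0.56 (SE), 0.02 without rest replicate 1 and -1.35 ± 0.91 with library size alone. Rest replicate 1 was also the highest library for the proximal tubule markers, 11 rows that summed to 1032, 1428 and 1164 CPM in DL replicates 1 to 3, against 2225, 1517 and 962 CPM in rest replicates 1 to 3. Of these 11 rows 10 had negative fold changes and all were detected in both groups. Rest replicate 1 was likewise the highest library for the summed markers of podocytes (493 CPM), smooth muscle and pericytes (790 CPM) and macrophages (146 CPM). The macrophage sum rested largely on SPI1 (99.6 CPM in rest replicate 1) and was nearly as high in DL replicate 2 (139 CPM). Of the 10 macrophage rows tested, 6 had negative fold changes. The part of any of these lists in the level of ANO1 was not tested. ano2b, the relative of the channel of olfactory neurons in mammals, had 3.75, 0.227 and 3.03 CPM in DL replicates, against 1.49, 4.06 and 5.25 CPM in rest replicates. Its groups overlapped, and its log2 fold change was -0.63 ± 1.14 (SE).

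ANO6 and ANO5 encode proteins linked to phospholipid scrambling, ANO6 as the scramblase of human platelets and ANO5 through human muscle and bone disease. ANO6 had 12.1, 12.9 and 26.7 CPM in DL replicates 1 to 3, against 19.3, 45.3 and 26.1 CPM in rest replicates 1 to 3. The groups overlapped through the library labelled DL replicate 3, and the log2 fold change was -0.81 ± 0.52 (SE), or -1.24 ± 0.58 without that library. Rest replicate 2, the highest for ANO6, was also the highest for 4 neutrophil markers, which summed to 14.5, 359 and 52.7 CPM in DL replicates 1 to 3, against 85.0, 1429 and 41.3 CPM in rest replicates 1 to 3. All 4 had negative fold changes, and npsn had 0 counts in DL replicate 1. Rest replicate 2 was the highest library for the summed lymphoid markers as well (281 CPM), but ighm alone gave 267 CPM of that sum. Of the other lymphoid rows, PAX5, cd79a and RAG1 were also highest there. In contrast, cd79b and ZAP70 were highest in rest replicate 1, and lck and cd4-1 in DL replicate 2. The part of either list in the level of ANO6 was not tested.

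ANO5_ENSDARG00000036147 had 9.45, 12.1 and 9.83 CPM in DL replicates 1 to 3, against 19.6, 21.0 and 19.99 CPM in rest replicates 1 to 3. All DL libraries lay below all rest libraries, and the spread inside each group was small, with means of 10.5 ± 1.45 CPM for DL and 20.2 ± 0.684 CPM for rest libraries (SD, n = 3 each). The log2 fold change was -0.95 ± 0.47 (SE), and -0.86 ± 0.55 without the library labelled DL replicate 3. This separation depended on the scaling, because with library size alone the gene had 4.91, 14.1 and 11.2 CPM in DL replicates, against 35.4, 31.7 and 10.7 CPM in rest replicates, and the groups overlapped. The other copy, ANO5_ENSDARG00000015731, had 1.67, 3.89 and 10.02 CPM in DL replicates, against 8.31, 12.1 and 19.7 CPM in rest replicates. Its groups overlapped through the library labelled DL replicate 3, and its log2 fold change was -1.35 ± 0.73 (SE), or -2.18 without that library. With DL replicate 1 and rest replicate 3 both left out it was -0.56. Among the counts of both ANO5 rows together, ANO5_ENSDARG00000036147 took 85.0%, 75.7% and 49.5% in DL replicates 1 to 3, against 70.3%, 63.3% and 50.4% in rest replicates 1 to 3. For the markers of smooth muscle and pericytes the groups did not overlap in TMM-scaled CPM either. Their 10 rows summed to 389, 220 and 364 CPM in DL replicates, against 790, 546 and 592 CPM in rest replicates. With library size alone these sums overlapped too, through DL replicate 3 and rest replicate 3, whose scaling factors were 1.14 and 0.533. Of the 8 marker rows tested 7 had negative fold changes. Among the rows not tested, 1 had 0 counts in all DL libraries and 1 in all rest libraries. Neither of these had more than 1 count in any library. Skeletal muscle markers, 7 rows in all, summed to at most 16.3 CPM in DL libraries and 12.3 CPM in rest libraries, with actc1b at 0 in all 6 libraries. The part of either marker list in the ANO5 levels was not tested.

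ano9b, whose mammalian relative ANO9 is found mainly in epithelia, was the only other row with a fitted log2 fold change above 1. It had 10.7, 6.35 and 19.5 CPM in DL replicates 1 to 3, against 3.80, 1.73 and 6.95 CPM in rest replicates 1 to 3. In TMM-scaled CPM the groups overlapped by a single pair of libraries, DL replicate 2 and rest replicate 3. The lowest DL library was 0.914 times the highest rest library. With library size alone the pair that overlapped was DL replicate 1 (5.56 CPM) and rest replicate 1 (6.85 CPM). The log2 fold change was 1.57 ± 0.73 (SE). Unlike ano7, ano9b was highest in the library labelled DL replicate 3, and without that library its log2 fold change was 1.09 ± 0.88. In the RefSeq annotation (assembly GRCz12tu) ano9b and ano5b are near neighbours, with 1 protein-coding gene, tssc4, between them.

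The remaining anoctamin genes encode proteins of inner membranes and contact sites, and their groups overlapped. ANO10, linked in humans to an inherited ataxia, had 9.17, 7.18 and 7.75 CPM in DL replicates 1 to 3, against 7.88, 18.1 and 7.79 CPM in rest replicates 1 to 3. In this TMM scaling only rest replicate 2 was outside the range of the DL libraries by a wide margin. With library size alone ANO10 had 4.77, 8.36 and 8.82 CPM in DL replicates, against 14.2, 27.4 and 4.16 CPM in rest replicates. Its copy ano10b had 19.0, 12.7 and 15.4 CPM in DL replicates, against 9.25, 10.7 and 21.0 CPM in rest replicates. The log2 fold changes were -0.49 ± 0.59 for ANO10 and 0.21 ± 0.53 for ano10b (SE). Within each library, ano10b had 2.08, 1.77 and 1.99 times the counts of ANO10 in DL replicates, against 1.17, 0.589 and 2.70 times in rest replicates, a narrow range in DL that lay inside that of the rest. ANO8, known in mammals as a tether between the endoplasmic reticulum and the cell membrane, was low in both rows. ANO8_ENSDARG00000076265 was near the limit of detection, and ANO8_ENSDARG00000077229 ranged from 2 counts in DL replicate 1 to 100 in DL replicate 2. ANO8_ENSDARG00000077229 had 0.278, 3.78 and 2.74 CPM in DL replicates, against 1.13, 3.03 and 1.19 CPM in rest replicates, and a log2 fold change of 0.35 ± 1.23 (SE). ANO8_ENSDARG00000076265 did not pass the filter, with 1.85, 0 and 8 counts in DL replicates, against 1, 17 and 1 counts in rest replicates.

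Taking the 10 tested rows together, 4 had positive and 6 negative fold changes, where 53.5% of all genes tested were negative. Their median log2 fold change was -0.55, against -0.07 over all genes tested, and -0.61 without ano7. It was -0.18 without rest replicate 2, -0.32 without DL replicate 2, -0.35 without rest replicate 1 and -1.05 with library size alone, which moved the median of all genes to -0.50. At an adjusted p of 0.05 in edgeR's quasi-likelihood test, 0 of the 10 were called in either direction, where 0.0644% of all genes were called higher and 0% lower. DESeq2 called 1 of them higher, ano7, where it called 1.37% of the 16960 genes given an adjusted p higher and 0.342% lower. limma-voom called 0, where it called 0.0351% of all genes higher and 0% lower. At an unadjusted p under 0.05, 1 was higher and 0 were lower, where 4.09% of all genes were higher and 2.73% lower. All DL libraries lay above all rest libraries for 1 row, ano7, where this held for 6.82% of all genes tested. All DL libraries lay below all rest libraries for 1 row, ANO5_ENSDARG00000036147, where this held for 6.28%. Since the contrast also led to the choice of the family, nothing is read from these counts.

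**Figure D3:**
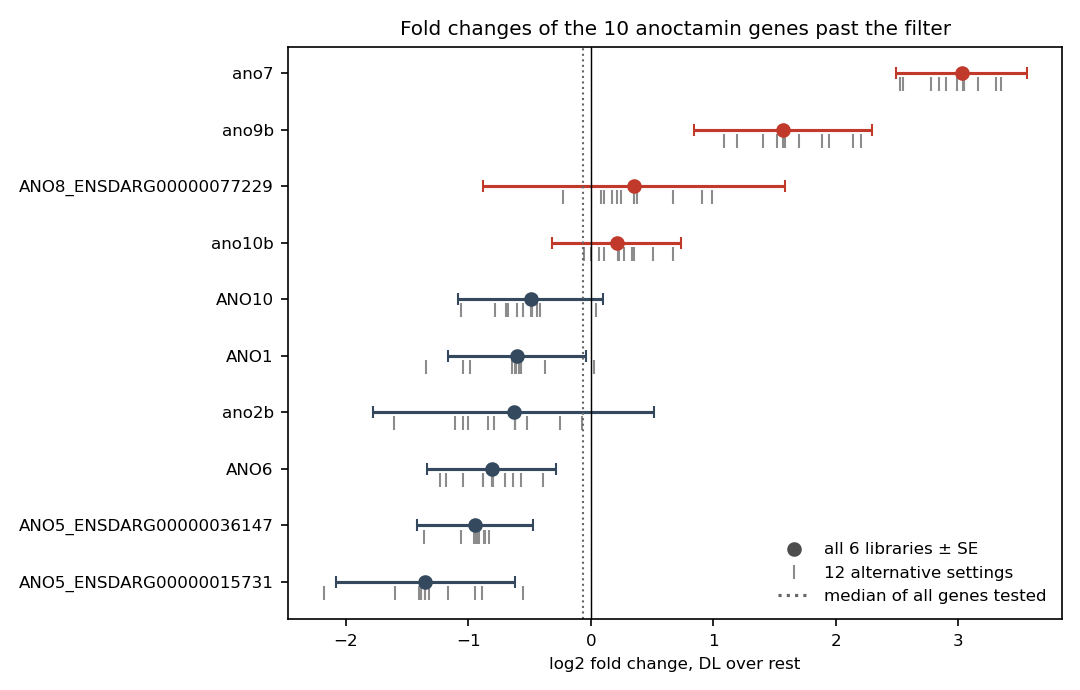
Log2 fold change of DL over rest for the 10 anoctamin rows past the filter, with the estimate from all 6 libraries and its SE (dots and bars) and the estimates under 12 alternative settings (grey ticks). The ticks of ano7 run from 2.53 to 3.35 and stay clear of 0, while those of ANO1, ANO8_ENSDARG00000077229, ANO10 and ano10b cross it.

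The share of ano7 in the counts of the family, which does not depend on scaling between libraries, did not overlap between the groups. ano7 made up 60.8%, 46.7% and 29.1% of the counts of the 11 rows in DL replicates 1 to 3, against 5.83%, 6.24% and 10.3% in rest replicates 1 to 3. The exact 95% binomial (Clopper-Pearson) intervals, which cover counting error only, ran from 26.9% to 31.3% in the library labelled DL replicate 3 and from 8.27% to 12.7% in rest replicate 3, the closest pair. Because the family was chosen by ano7, the intervals do not test the difference between the groups. They leave out the variation between libraries. The share of ANO6 ran from 5.52% to 16.7% in DL libraries, against 15.5% to 29.7% in rest libraries, and overlapped through the library labelled DL replicate 3. These are shares of counts, not corrected for transcript length, so they are compared between libraries and not between genes. Without ano7 the other 10 rows summed to 85.6, 76.5 and 113 CPM in DL replicates 1 to 3, against 117, 143 and 118 CPM in rest replicates 1 to 3. All DL sums lay below all rest sums, with the library labelled DL replicate 3 nearest to the rest. With library size alone the sums overlapped, at 44.5, 89.0 and 129 CPM in DL replicates 1 to 3, against 211, 216 and 62.8 CPM in rest replicates 1 to 3.

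**Figure D4:**
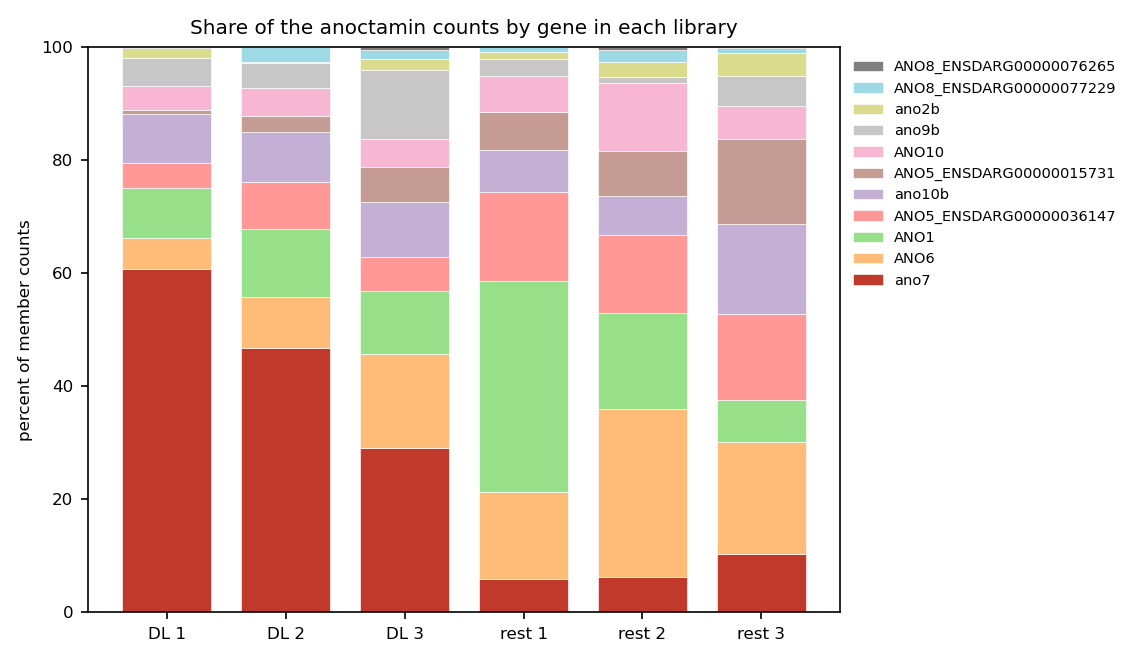
Share of the counts of the 11 anoctamin rows taken by each row in each library, in percent of the rows' summed counts, with DL libraries on the left and rest libraries on the right. The share of ano7 (dark red, bottom) runs from 29.1% to 60.8% in DL libraries and from 5.83% to 10.3% in rest libraries.

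Of 4 further anoctamin rows in the table, 2 passed the filter. ano9a had 20.01, 0.869 and 3.69 CPM in DL replicates 1 to 3, against 4.47, 0 and 211 CPM in rest replicates 1 to 3. Its rest level thus rested on rest replicate 3, and its log2 fold change of -3.15 ± 2.43 (SE) carried a large error. ANO3 was at or below 3.39 CPM in all 6 libraries. ano11 had 0, 8 and 3 counts in DL replicates 1 to 3 and 0 in the rest libraries, so its groups overlapped. Its rate over the DL libraries together, from 11 counts, was 4.74 times the floor of 3 counts over the rest libraries. ano2a had at most 6 counts in a library.

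Genes that work beside the anoctamins, or share their fold, were compared by the same fit and are not part of the family. Their tests are given, but these lists too were chosen with earlier results of these data known. The p-values are therefore a description and not independent support. None of the 4 lists held a gene that passed edgeR's test after adjustment over all genes, where it called 0.0644% of all genes higher and 0% lower. limma-voom called 0, where it called 0.0351% of all genes higher. DESeq2 called 1 higher, ATP8A2, where it called 1.37% of the genes given an adjusted p higher. Of 17 tested genes of other chloride channels and chloride entry, 0 were higher and 0 lower. Their median log2 fold change was 0.02, against -0.07 over all genes tested. Without adjustment, 0 were higher and 2 lower at a p under 0.05, where 4.09% of all genes were higher and 2.73% lower. The 2 were CLIC4, an intracellular channel protein gene, with a log2 fold change of -0.97 ± 0.43 (SE, adjusted p = 0.701), and clca5.2, a relative of the calcium-activated channel regulators, with -3.09 ± 1.23 (adjusted p = 0.62). CLIC4 also had the highest mean CPM of them, not corrected for length, at 37.4, 30.01 and 60.05 CPM in DL replicates 1 to 3, against 93.1, 75.5 and 81.5 CPM in rest replicates 1 to 3. In the positive direction the smallest p-values were those of clic5b, at 1.16 ± 0.73, and LRRC8D, a volume-regulated channel subunit gene, at 0.69 ± 0.60. slc12a2, the cotransporter that loads chloride into secretory cells, had 29.2, 11.6 and 16.7 CPM in DL replicates, against 40.5, 14.6 and 14.2 CPM in rest replicates. CFTR, the gene of a chloride channel activated through cyclic AMP, did not pass the filter.

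Of 27 tested genes of calcium release and entry, 0 passed in either direction, and the median log2 fold change was -0.08. At an unadjusted p under 0.05 there were also 0, where 4.09% of all genes were higher and 2.73% lower. The highest mean CPM was that of calm3b, a calmodulin gene, at 136, 179 and 140 CPM in DL replicates 1 to 3, against 280, 99.9 and 158 CPM in rest replicates 1 to 3. ITPR1_ENSDARG00000014655, a receptor gene for calcium release from the endoplasmic reticulum, had 238, 125 and 141 CPM in DL replicates 1 to 3, against 54.6, 134 and 93.5 CPM in rest replicates 1 to 3, with overlapping groups. Its log2 fold change was 0.84 ± 0.49 (SE), and that of calm1b, another calmodulin gene, was 0.90 ± 0.58. The smallest p-values in the other direction were those of another release channel gene, ITPR2, at -0.56 ± 0.41, and of STIM2, a sensor of stored calcium, at -0.79 ± 0.72.

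Of 24 tested scramblase and flippase genes, 0 passed, with a median log2 fold change of 0.29. At an unadjusted p under 0.05, 1 was higher and 0 were lower, where 4.09% of all genes were higher and 2.73% lower. The 1 gene was ATP8A2, a flippase that returns phosphatidylserine to the inner leaflet. It had 45.7, 27.1 and 15.2 CPM in DL replicates 1 to 3, against 2.65, 2.38 and 10.2 CPM in rest replicates 1 to 3, with no overlap. The log2 fold change was 2.57 ± 0.70 (SE) with an adjusted p of 0.293 in edgeR, and DESeq2 called it higher with an adjusted p of 0.0233. Over the alternatives it was past the threshold only in DESeq2. Its relative atp8a1 had a log2 fold change of -1.49 ± 0.84 (SE), with 0.834, 3.10 and 2.84 CPM in DL replicates, against 5.81, 5.58 and 7.96 CPM in rest replicates. ATP8B4 had 0.75 ± 0.45 and XKR8, a caspase-activated scramblase gene, -1.44 ± 0.92.

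The TMC and TMEM63 proteins share the transmembrane fold of the anoctamins. Of 7 tested genes 0 passed, and 1 was higher at an unadjusted p under 0.05, as were 4.09% of all genes. The median log2 fold change of the 7 genes was -0.18. For 3 of them, tmc4, tmc5 and TMEM63B, all DL libraries lay above all rest libraries in TMM-scaled CPM, as for 6.82% of all genes. For each of the 3 this order depended on the scaling. Unscaled, tmc4, tmc5 and TMEM63B took 342, 71 and 136 of 13840840 filtered counts in DL replicate 1. In rest replicate 1 they took 960, 174 and 598 of 18245490, a larger share for each gene. tmc4, whose mouse relative has been reported as a chloride channel, had the highest mean CPM, at 47.5, 52.7 and 31.0 CPM in DL replicates 1 to 3, against 29.2, 10.2 and 8.64 CPM in rest replicates 1 to 3. Its log2 fold change was 1.44 ± 0.55 (SE, adjusted p = 0.57), and that of tmc5 was 2.17 ± 1.05 (adjusted p = 0.77). In the other direction tmc6b had -1.03 ± 0.81 and tmem63a -0.51 ± 0.70.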

How the data were processed

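Per the labels' protocols, the dissection of DL segments was manual, and cDNA libraries were prepared with a NuGEN single-cell RNA-seq kit. The authors deposited their values as estimated counts per Ensembl gene (also called expected counts, in part fractional) in a single table of 6 libraries. Not given in the sources used here were the genome build, aligner, counting tool and strand setting. How reads were split between gene copies (ANO5, ANO8) or from antisense genes is therefore uncertain, and no coordinates are given. Replicate numbers follow the order of deposition. A table of identifiers gave symbols to 26121 genes.

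Counts were rounded, filtered with filterByExpr, scaled by TMM and fitted with edgeR 4.0.16 in R 4.3.3 (quasi-likelihood test of DL over rest, Benjamini-Hochberg adjustment over all genes, threshold 0.05). CPM use TMM-scaled library sizes. A standard error is the size of the log2 fold change divided by the root of F. No libraries were alike enough to be 1 library deposited again. Alternatives were DESeq2 1.42.0, limma-voom with a quality weight estimated for each library (limma 3.58.1), other scalings, no filter and leaving out libraries. The fit was also run on simulated counts, whose outcome is not given and from which nothing is read. The members and lists were chosen with earlier results of these data known. Genes are named by rule: all anoctamin rows, SLC12A3, the 5 genes most like ano7, and per list those past the threshold, the 2 smallest p-values per direction and the highest mean CPM. A gene that this rule names is not reported here. Other list genes and marker genes were named after their values were seen.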

Additional observations from a re-analysis of the deposited data

How the results depend on the processing

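No paired analysis was run, because the labels do not pair DL libraries with rest libraries. The groups alternate in the order of deposition, but the labels do not say whether neighbours in that order share fish. Over the 12 alternatives the log2 fold change of ano7, given as a description, ran from 2.53 to 3.35. The count of anoctamin genes called higher, 0 with all libraries in edgeR, was 1 in DESeq2 (1.37% of all genes), 1 without a filter (0.381%) and 0 to 1 when single libraries were left out (0% to 0.275%). Signs turned for ANO1 without rest replicate 1 (0.02), ANO8_ENSDARG00000077229 without DL replicate 2 (-0.22), ANO10 without rest replicate 2 (0.04) and ano10b with library size alone (-0.06). The cause was not tested. With library size alone the median over all genes was -0.50 in place of -0.07, and the count of anoctamin genes with all DL below all rest libraries was 0, where this held for 6.25% of all genes. Leaving out single libraries gave 1 to 3 such genes below and 1 to 3 above, where over 5 libraries this held for 10.1% to 14.9% and 9.53% to 12.6% of all genes. Over all genes 11 were called higher and 0 lower. DESeq2 called 233 and 58, limma-voom 6 and 0, library size alone 1 and 0, and no filter 99 and 7. With DL replicate 1 and rest replicate 3 left out together 0 were higher. Leaving out single libraries gave 0 to 51 higher and 0 to 2 lower, with 51 and 2 without the library labelled DL replicate 3. DESeq2 called 1 scramblase or flippase gene higher, and no alternative called another gene of the 4 partner lists. Low counts limit ANO8_ENSDARG00000076265, ano2a and ano11.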
